A study of Mus musculus with 24 samples.

Results

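Tirzepatide (TZP), a peptide that activates the receptors of both incretin hormones, GIP and GLP-1, was compared with LAGIPRA, a long-lasting agent that activates only the receptor of GIP (GIPR), in mouse brown adipose tissue. The comparison took the 6 libraries labelled TZP and the 6 labelled LAGIPRA, 12 of the 24 in the series, and 17263 of the 23017 genes in the deposited table were tested, those of lowest mean being left out. All mice were C57BL/6J, described by the series title as obese and insulin resistant. The other groups were vehicle-treated mice (Vehicle, 6 libraries) and vehicle-treated mice with pair feeding (PairFedVehicle, 6 libraries), in which food is limited to the amount eaten by another group. The sources used here give no dose, treatment time, diet, age, sex or the group that set the pair-fed amount, and do not state that each library came from its own animal, so p-values measure only the spread between libraries. RNA selected for polyA tails was sequenced, and expression is given on the deposited scale, taken to be log2 with an offset near 1, on which a difference of 1 is close to a doubling for well expressed genes and understates the change of weak ones.

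Brown fat burns fuel to make heat. Its adipocytes carry many mitochondria with the uncoupling protein UCP1, and they lie in a dense bed of capillaries. GIPR and the GLP-1 receptor both signal through Gs proteins and cyclic AMP, and in adipose tissue GIPR has been described in adipocytes and pericytes. The comparison thus asks which genes differed when GLP-1 receptor agonism, and whatever it changes in food intake and weight, was combined with GIPR agonism. Glp1r was not analysed here.

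Few genes passed the threshold between the treatments. Of 17263 genes tested with limma, 69 passed at an adjusted p (Benjamini-Hochberg over all tested genes) under 0.05, which is 0.400% of those tested. Of these, 9 were higher in TZP (0.0521%) and 60 were lower (0.348%). The lower genes included red cell genes with large differences, the developmental regulator Tbx5, the insulin receptor substrate Irs1, and genes of vessel walls and matrix. The higher genes included the glucocorticoid-induced Fkbp5. The adjusted p of the genes that passed ran from 0.0258 to 0.0495, close to the threshold throughout. At an unadjusted limma p under 0.05 there were 2835 genes (16.4%), so the small number called does not show that the treatments were alike. Leaving out TZP 6, LAGIPRA 3, LAGIPRA 4 or LAGIPRA 6 brought the number called to 0, and the range over the other single omissions was 1 to 1088. More genes differed from vehicle-treated mice: 3805 genes passed for TZP against Vehicle (22%) and 2370 for LAGIPRA against Vehicle (13.7%), comparisons that share the Vehicle libraries.

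**Figure D1:**
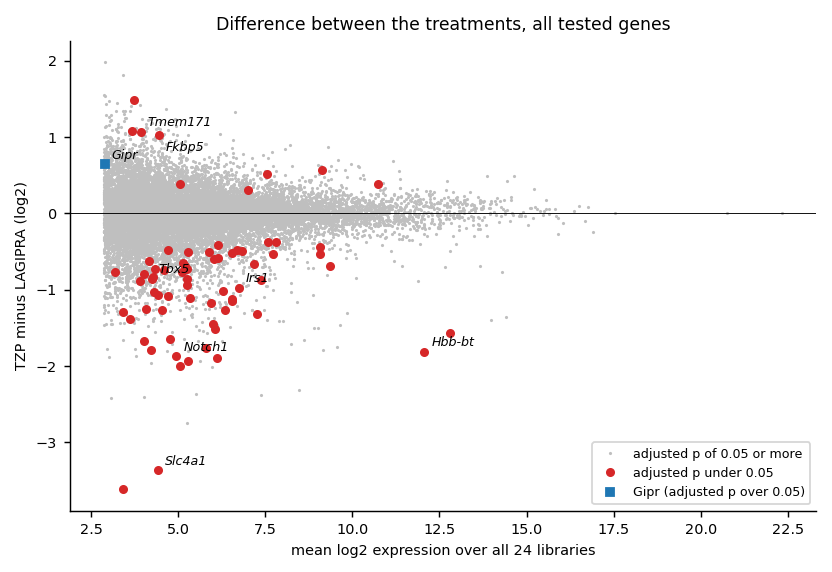
Difference between TZP and LAGIPRA (log2, vertical axis) against mean log2 expression over all 24 libraries (horizontal axis), with 1 point per tested gene. The 69 genes that passed are in red, 60 of them below 0, and Slc4a1 lies near the bottom at -3.36, while Gipr, marked by a square at 0.65, did not pass.

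The TZP libraries fell into 2 sets in 1 measure, and the main results below are given for both. The slope of expression on transcript length, relative to the mean of all libraries, was 0.017 and 0.020 log2 per doubling of length in TZP 1 and 2 and ran from -0.068 to -0.170 in TZP 3 to 6. It ran from -0.006 to 0.050 in LAGIPRA (mean -0.069 ± 0.076 in TZP and 0.010 ± 0.020 in LAGIPRA, SD, n = 6 each; two-sided exact permutation p = 0.0455, adjusted over 3 measures 0.136). The level taken as that of 1 read, a proxy of depth, ran from 0.96 to 1.53 in TZP and from 1.12 to 1.68 in LAGIPRA (exact permutation p = 0.825, adjusted 0.825), and read totals are unknown. In TZP 3 to 6 the median difference from LAGIPRA was 0.17 in the 10% of genes with the shortest transcripts and -0.39 in the 10% with the longest. In TZP 1 and 2 these medians were 0.00 and 0.06. TZP 3 to 6 alone gave 2251 genes past the threshold and TZP 1 and 2 alone gave 2, counts from sets of unequal size. The part of transcript length in the genes that passed was not tested, and lengths are given beside the insulin, vessel and matrix groups. Skeletal muscle markers, all 19 tested, averaged 1.14 in TZP 3 and 6.52 to 9.12 in the other TZP libraries, against 5.77 to 8.99 in LAGIPRA. None of the 19 passed (median difference -1.41).

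**Figure D2:**
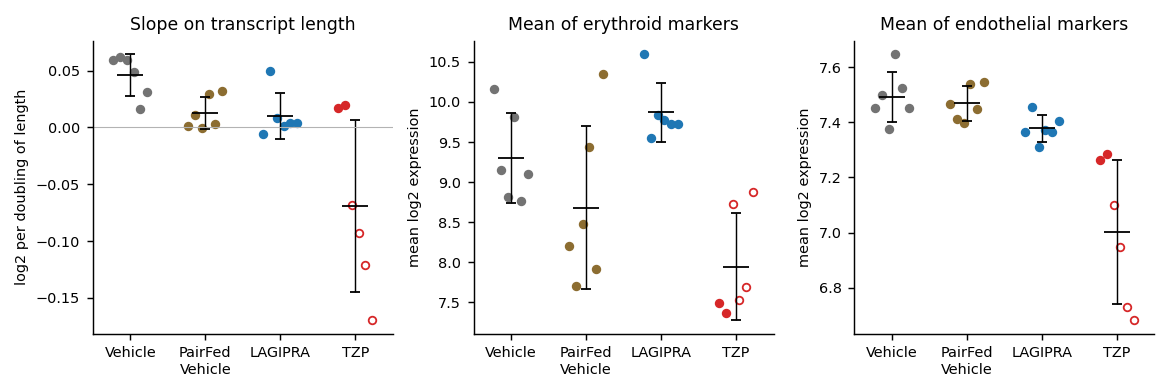
Slope of expression on transcript length (left, log2 per doubling of length), mean log2 expression of 8 erythroid markers (middle) and of 15 endothelial markers (right) in each library of the 4 groups, with the mean and SD in black. The open TZP circles, libraries 3 to 6, lie below all other libraries in slope and endothelial mean, while the erythroid mean is low in TZP libraries of both sets.

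**Figure D3:**
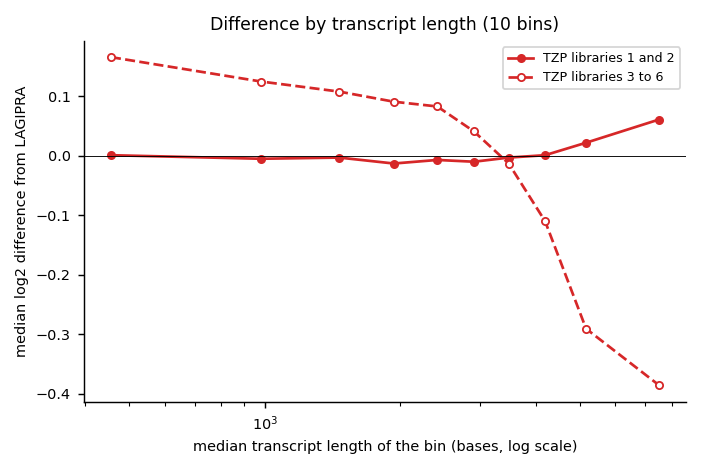
Median log2 difference from LAGIPRA (vertical axis) in 10 equal bins of the tested genes by transcript length (bases, horizontal log axis). In TZP libraries 3 to 6 the median falls from 0.17 to -0.39 from the shortest to the longest bin, and in TZP libraries 1 and 2 it lies between -0.01 and 0.06.

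Among the receptors, Gipr (Entrez 381853), the target both agents share, differed between the treatments without passing. Its level was 2.99, 3.04 and 3.36 in TZP (lowest, median, highest) and 2.13, 2.51 and 2.69 in LAGIPRA. Every TZP library was above every LAGIPRA library, and the TZP levels lay within those of Vehicle (2.81 to 3.50). The difference was 0.65 (SE 0.19, 95% interval 0.25 to 1.04; limma adjusted p = 0.0846), 0.58 for TZP 1 and 2 and 0.68 for TZP 3 to 6. Against Vehicle, Gipr stood at -0.52 in LAGIPRA (adjusted p = 0.0637) and 0.12 in TZP (adjusted p = 0.687). Its mean lies just above the limit for testing, so its level rests on few reads. The glucagon receptor Gcgr was under that limit in all libraries (0.13 to 0.53). Of the 6 receptors and accessory proteins tested, 0 passed, and Gipr was the only one whose groups did not overlap, a property of 0.811% of all genes (0.353% with TZP higher). The secretin receptor Sctr differed by -0.11, the calcitonin receptor-like receptor Calcrl by -0.18 (adjusted p = 0.798 and 0.729), and its partners Ramp1, Ramp2 and Ramp3 by -0.12, 0.02 and 0.39 (adjusted p of 0.528 or more).

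Red cell genes carried the largest differences. Of the 8 erythroid markers, all tested, 5 passed as lower in TZP, against 0.348% of all genes, and 7 of 8 did not overlap between the groups, as did 0.458% of all genes with TZP lower. Their median difference was -1.69, against 0.01 over all genes, and it was -2.29 for TZP 1 and 2 and -1.39 for TZP 3 to 6. The mean of the 8 ran from 7.37 to 8.87 in TZP, from 9.55 to 10.60 in LAGIPRA, from 8.77 to 10.16 in Vehicle and from 7.71 to 10.35 in PairFedVehicle. In bulk tissue, fewer cells of a type and less RNA per cell cannot be told apart. The red cell content of each sample, which blood left in the tissue would set, was not measured here, and its part in the difference was not tested.

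The 250 bases before the start of 3 of these genes are shown because the genes differed together. They come from RefSeq (GRCm38.p6), which gave a window for 6 of the 8 genes. Capitals mark matches on either strand to GATAA, the core bound by GATA factors, the CACCC box bound by KLF factors, and the CCAAT box. Among the 32851 such windows of the table, GATAA was found in 22.6%, the CACCC box in 52.0% and the CCAAT box in 33.8%, and 3.5% held all 3. Of the 6 windows, GATAA was found in 6, the CACCC box in 5 and the CCAAT box in 4, and 4, those of the globins, held all 3. The alpha globin genes are near copies of each other, as are the beta globin genes, so these windows are not independent. The window of Epb42 held neither the CACCC box nor the CCAAT box. Hba-a2 lies at chr11:32296242-32296491 on the plus strand, Hbb-bt at chr7:103813924-103814173 on the minus strand and Alas2 at chrX:150547167-150547416 on the plus strand. A match is a description of these letters and not evidence of binding.

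Hba-a2: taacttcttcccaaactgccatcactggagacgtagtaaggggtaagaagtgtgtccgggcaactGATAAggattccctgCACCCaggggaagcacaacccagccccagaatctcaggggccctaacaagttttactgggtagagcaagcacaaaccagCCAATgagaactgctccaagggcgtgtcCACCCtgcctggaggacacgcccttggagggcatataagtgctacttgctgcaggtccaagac
Hbb-bt: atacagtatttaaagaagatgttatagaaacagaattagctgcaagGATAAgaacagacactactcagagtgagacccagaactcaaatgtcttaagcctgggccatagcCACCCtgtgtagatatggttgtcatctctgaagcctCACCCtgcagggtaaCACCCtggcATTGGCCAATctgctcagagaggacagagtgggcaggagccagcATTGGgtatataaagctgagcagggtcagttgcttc
Alas2: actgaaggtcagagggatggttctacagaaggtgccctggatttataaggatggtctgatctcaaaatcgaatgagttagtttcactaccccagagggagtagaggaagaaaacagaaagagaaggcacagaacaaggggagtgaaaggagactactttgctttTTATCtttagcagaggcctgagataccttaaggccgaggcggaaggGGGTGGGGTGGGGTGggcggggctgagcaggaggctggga

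All 3 windows hold 1 GATAA. The CACCC box occurs 2 times in Hba-a2, 3 times in Hbb-bt and 3 times in Alas2, and the CCAAT box occurs 1, 3 and 0 times. Hbb-bt (Entrez 101488143), an adult beta globin, had 10.31, 10.66 and 12.02 in TZP and 12.39, 12.82 and 13.41 in LAGIPRA (lowest, median, highest). The groups did not overlap, and the 2 highest TZP libraries, 3 and 6, were still below the lowest LAGIPRA library. Its mean was 11.02 ± 0.78 against 12.83 ± 0.34 (SD, n = 6), a difference of -1.81 (SE 0.38, limma adjusted p = 0.0468), or 3.52-fold. Hba-a2 (Entrez 110257), an alpha globin, differed by -1.56 (SE 0.35, adjusted p = 0.0487), from 11.37 to 12.99 in TZP and from 13.17 to 14.11 in LAGIPRA. Reads of the near-identical alpha globins may be split between them, so Hba-a2 and Hba-a1 (-1.39, adjusted p = 0.0531) are uncertain one by one. The other beta globin, Hbb-bs, stood at -1.36 (adjusted p = 0.0660). The beta globin genes are near copies too, so Hbb-bt and Hbb-bs are also uncertain one by one. Alas2 (Entrez 11656), the enzyme that starts heme synthesis in red cell precursors, had 4.18 to 6.19 in TZP and 6.73 to 7.67 in LAGIPRA (-1.89, SE 0.42, adjusted p = 0.0468).

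A membrane protein of red cells showed a wider gap. Slc4a1 (Entrez 20533), the anion exchanger band 3, had 0.01, 2.21 and 4.87 in TZP and 5.33, 5.58 and 7.18 in LAGIPRA. It was near 0 in TZP 2 and highest in TZP 3 and 6, and no TZP library reached the LAGIPRA range (-3.36, SE 0.66, adjusted p = 0.0424). Epb42, a protein of the red cell membrane skeleton, stood at -0.40 with overlap (adjusted p = 0.511). Fam46c, known from red cell precursors, also passed, at -2.01 (adjusted p = 0.0258), without overlap. Beside Vehicle, the 2 treatments stood on opposite sides: the median of the 8 markers was -1.14 for TZP (7 of 8 passed as lower) and 0.56 for LAGIPRA (0 passed). With the erythroid mean of each library as a covariate, 0 genes of any kind passed in TZP against LAGIPRA. An unadjusted p under 0.05 was found for 2509 genes, against 2835 without the covariate. The covariate is the mean of the 8 markers, and its TZP and LAGIPRA ranges do not overlap. It is thus confounded with the contrast, and the loss of calls cannot show what the differences follow.

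The 9 genes that were higher in TZP behaved alike in both sets of TZP libraries: each had at least 50% of its difference in TZP 1 and 2. In 8 of the 9 LAGIPRA had the lowest mean of the 4 groups, and in 6 of the 9 TZP had the highest, orders that the choice of genes by this contrast favours. Fkbp5 (Entrez 14229), a co-chaperone of the glucocorticoid receptor that glucocorticoids induce, had 4.63, 5.02 and 5.60 in TZP and 3.47, 4.13 and 4.35 in LAGIPRA. The groups did not overlap, and the difference was 1.03 (SE 0.22, adjusted p = 0.0468), 0.96 in TZP 1 and 2 and 1.06 in TZP 3 to 6. Fkbp5 also rose in TZP against Vehicle (0.75, adjusted p = 0.0181), while LAGIPRA stood at -0.28 (adjusted p = 0.392). Of the 14 glucocorticoid-responsive genes tested it was the only one to pass (0.400% background), with a list median of 0.05. At an unadjusted p under 0.05, 4 of the 14 were higher (6.04% of all genes). The list was divided, with 7 members above 0 and 7 below. Its median was 0.37 in TZP 1 and 2 and -0.10 in TZP 3 to 6. With TZP 3 to 6 alone, 1 member passed as higher and 3 as lower, against 480 and 1771 of all 17263 genes. The metallothioneins Mt1 and Mt2, which bind metal ions and respond to glucocorticoids and zinc, stood at 0.45 and 0.69 (adjusted p = 0.0660 and 0.0947), and Mt1 did not overlap. The cell cycle inhibitor Cdkn1a stood at 0.42 (adjusted p = 0.168), with 0.76 in TZP 1 and 2 and 0.25 in TZP 3 to 6. Zbtb16, another glucocorticoid-induced gene, stood at -0.65 (adjusted p = 0.383), with 0.77 in TZP 1 and 2 and -1.37 in TZP 3 to 6.

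Tmem171 (Entrez 380863), a membrane protein, had 3.91, 4.35 and 4.56 in TZP and 2.80, 3.15 and 3.70 in LAGIPRA. All TZP libraries were above all LAGIPRA libraries (1.07, SE 0.18, adjusted p = 0.0258), and the TZP range lay beside that of PairFedVehicle (4.05 to 4.69). Against Vehicle it fell in LAGIPRA (-0.63, adjusted p = 0.0245), and TZP stood at 0.44 (adjusted p = 0.0818). Gm10277, a predicted gene, had 7.85 to 8.15 in TZP and 7.37 to 7.62 in LAGIPRA (0.51, SE 0.087, adjusted p = 0.0258). Slc35c2, a nucleotide sugar transporter of the Golgi, and Snu13, a protein of splicing and nucleolar particles, rose by 0.38 and 0.30 (adjusted p = 0.0468 and 0.0474). The remaining 4 were gene models or pseudogenes: Gm41633 (1.48), Gm34344 (1.08), Mif-ps6 (0.57) and Gm10169 (0.38), with adjusted p from 0.0424 to 0.0495. Reads of Mif-ps6 may come from its parent gene, so its value is uncertain.

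**Figure D4:**
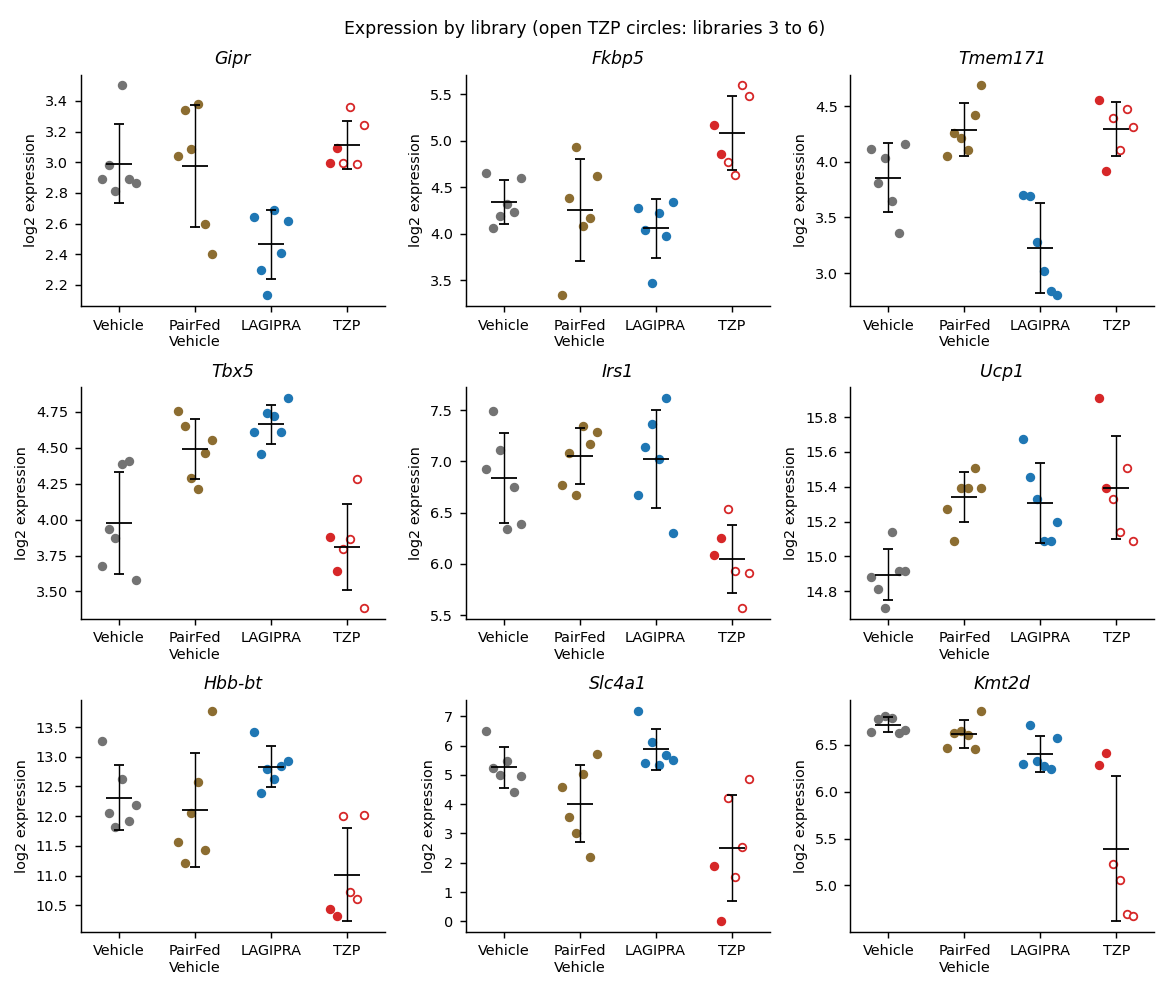
Log2 expression of 9 genes in every library of the 4 groups, with the group mean and SD in black and TZP libraries 3 to 6 as open circles. Gipr, Fkbp5 and Tmem171 are higher in every TZP library than in every LAGIPRA library, Tbx5, Hbb-bt and Slc4a1 are lower, Irs1 and Ucp1 overlap, and Kmt2d is low in the open circles only.

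The genes that were lower in TZP varied in how much of the difference TZP 1 and 2 showed. With a limit set at 50%, TZP 1 and 2 showed at least that share in 26 of the 60 and less in 34. The limit was chosen for description and does not mark separate classes of genes. The median transcript lengths of the 26 and the 34 were 4575 and 6705 bases, against 2660 over all tested genes. In 59 of the 60, TZP had the lowest mean of the 4 groups, which the choice by this contrast favours. The exception was the transcript C030016D13Rik.

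Tbx5 (Entrez 21388), a T-box transcription factor of heart and forelimb development, had 3.38, 3.83 and 4.28 in TZP and 4.46, 4.67 and 4.85 in LAGIPRA. The groups did not overlap (-0.86, SE 0.15, adjusted p = 0.0258), and TZP 1 and 2 (-0.90) and TZP 3 to 6 (-0.83) gave like values. Its TZP levels lay beside those of Vehicle (3.58 to 4.41): it rose in LAGIPRA against Vehicle (0.69, adjusted p = 0.0100), and TZP stood at -0.17 (adjusted p = 0.464). PairFedVehicle, given vehicle alone, had 4.21 to 4.75. Against PairFedVehicle, Tbx5 stood at 0.18 in LAGIPRA (adjusted p = 0.51) and -0.68 in TZP (adjusted p = 0.00461). Lrig1, a membrane protein that restrains growth factor receptors, differed by -0.77 between the treatments (adjusted p = 0.0258). Beside Vehicle it was like Tbx5, with 0.44 for LAGIPRA (adjusted p = 0.0387) and -0.33 for TZP (adjusted p = 0.0885). Beside PairFedVehicle it was not, with 0.63 for LAGIPRA (adjusted p = 0.00425) and -0.14 for TZP (adjusted p = 0.541). Meox2, a homeobox factor of mesoderm and endothelium, fell by 0.37 (SE 0.081, adjusted p = 0.0468), with no overlap and -0.38 in TZP 1 and 2. Steap4, a metalloreductase of adipose tissue, differed by -0.44 (SE 0.097, adjusted p = 0.0468), with -0.43 in TZP 1 and 2. Fam84b, Kank2 and Tmem127, which encodes a membrane protein of the endosome system, differed by -0.88, -0.48 and -0.37 (adjusted p = 0.0258, 0.0344 and 0.0424), each without overlap and each with over 50% of the value in TZP 1 and 2.

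In insulin signalling, Irs1 (Entrez 16367), the docking protein that links the insulin receptor to PI3 kinase, was lower in TZP. It had 5.57, 6.01 and 6.53 in TZP and 6.30, 7.08 and 7.62 in LAGIPRA. The highest TZP library, 3, and the lowest LAGIPRA library, 6, overlapped. The difference was -0.97 (SE 0.21, 95% interval -1.41 to -0.53, adjusted p = 0.0468), -0.85 in TZP 1 and 2 and -1.03 in TZP 3 to 6. Against Vehicle, Irs1 fell in TZP (-0.79, adjusted p = 0.0113), and LAGIPRA stood at 0.19 (adjusted p = 0.576). Of the 23 genes of the pathway that were tested, Irs1 alone passed (0.348% of all genes with TZP lower). At an unadjusted p under 0.05, 12 of the 23 were lower in TZP (10.4% of all genes), and the list median was -0.36. These genes have long transcripts (median 6483 bases), and the list median was 0.02 in TZP 1 and 2 and -0.60 in TZP 3 to 6. Over all TZP libraries the list median was -0.20 after correction for length. Tbc1d4, an Akt substrate in the control of glucose transporter vesicles, stood at -1.09 (adjusted p = 0.0583), with -0.18 in TZP 1 and 2. Pik3r1, the regulatory subunit of PI3 kinase, stood at -0.57 (adjusted p = 0.0658), with -0.48 in TZP 1 and 2. The insulin-responsive glucose transporter Slc2a4 stood at -0.24 (adjusted p = 0.492), and rose against Vehicle in both treatments, by 0.753 in TZP and 0.996 in LAGIPRA (adjusted p = 0.00382 and 0.00376).

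Among genes of vessels and matrix, Tek, Notch1, Rgs5, Cspg4, Lamb2 and Lama4 fell in TZP against LAGIPRA. Of 15 endothelial markers tested, 1 passed (0.348% of all genes), 9 had an unadjusted p under 0.05 with TZP lower (10.4% of all genes), and the median was -0.23 (-0.10 in TZP 1 and 2, -0.30 in TZP 3 to 6). Their median transcript length was 4234 bases, and the median difference was -0.18 after correction for length. The mean of the 15 ran from 6.68 to 7.29 in TZP and from 7.31 to 7.46 in LAGIPRA, with TZP 1 and 2 at the top of the TZP range. Tek (Entrez 21687), the angiopoietin receptor TIE2, had 5.48, 5.73 and 6.08 in TZP and 6.06, 6.19 and 6.26 in LAGIPRA. It differed by -0.42 (SE 0.093, adjusted p = 0.0474), with -0.10 in TZP 1 and 2, whose values overlapped LAGIPRA. Cdh5, the cadherin of endothelial junctions, stood at -0.33, and Cd93, an endothelial membrane protein, at -1.30 (adjusted p = 0.0516 each). The VEGF receptors Flt1 and Kdr stood at -1.04 and -0.79 (adjusted p = 0.0658 each), with 0.17 and 0.02 in TZP 1 and 2. Pecam1, the adhesion molecule CD31, stood at -0.16 (adjusted p = 0.113) in both sets alike (-0.17 and -0.16).

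Notch1 (Entrez 18128), a receptor for contact signals between cells, differed mainly in TZP 3 to 6. It had 5.03 and 5.25 in TZP 1 and 2, within the LAGIPRA range of 4.99 to 5.68, and 1.78 to 3.19 in TZP 3 to 6. The difference over all 6 was -1.87 (SE 0.42, adjusted p = 0.0474). Of the 24 genes of NOTCH and endothelial signalling, 2 passed (Notch1 and Tek; 0.348% of all genes with TZP lower), and the list median was -0.03 in TZP 1 and 2 and -0.28 in TZP 3 to 6. It was -0.24 over all 6 and -0.15 after correction for length (median length 3991 bases). Among 13 pericyte and smooth muscle markers, 2 passed (0.348% of all genes with TZP lower). Rgs5, a brake on G protein signals in pericytes, and Cspg4, the NG2 proteoglycan, differed by -0.69 and -0.53 (adjusted p = 0.0489 and 0.0474), with -0.15 and -0.08 in TZP 1 and 2. The median of the 13 was -0.28, and -0.14 after correction for length (median length 4096 bases). Of 42 collagen and matrix genes, 2 passed (0.348% of all genes with TZP lower). These were the laminin chains Lamb2 and Lama4, at -0.67 and -0.49 (adjusted p = 0.0468 each), with -0.19 and -0.22 in TZP 1 and 2. The median of the 42 was -0.06, as -0.19 in TZP 1 and 2 and -0.02 in TZP 3 to 6, and it turned to 0.05 after correction for length (median length 5807 bases). Lats2, a kinase of the Hippo pathway, differed by -0.52 (adjusted p = 0.0468), with -0.14 in TZP 1 and 2.

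Some other genes that passed were also lower mainly in TZP 3 to 6, the libraries set apart by their slope on transcript length. The examples were picked with their values known, and Irs1, with a transcript of 9144 bases, did not show the split. Kmt2d, a histone methyltransferase with a transcript of 19820 bases, had 6.28 and 6.42 in TZP 1 and 2, 4.68 to 5.22 in TZP 3 to 6 and 6.25 to 6.71 in LAGIPRA (-1.01, SE 0.22, adjusted p = 0.0468). Arid1a, a subunit of SWI/SNF chromatin remodelling complexes, and Hcfc1, a chromatin-bound cofactor, differed by -1.52 and -1.45 (adjusted p = 0.0495 and 0.0474), with -0.03 and -0.04 in TZP 1 and 2. Gatsl2 had the smallest p of all genes (-1.79, SE 0.29, adjusted p = 0.0258), with -0.66 in TZP 1 and 2 and -2.36 in TZP 3 to 6. Its groups did not overlap (highest TZP 4.09, lowest LAGIPRA 4.25).

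**Figure D5:**
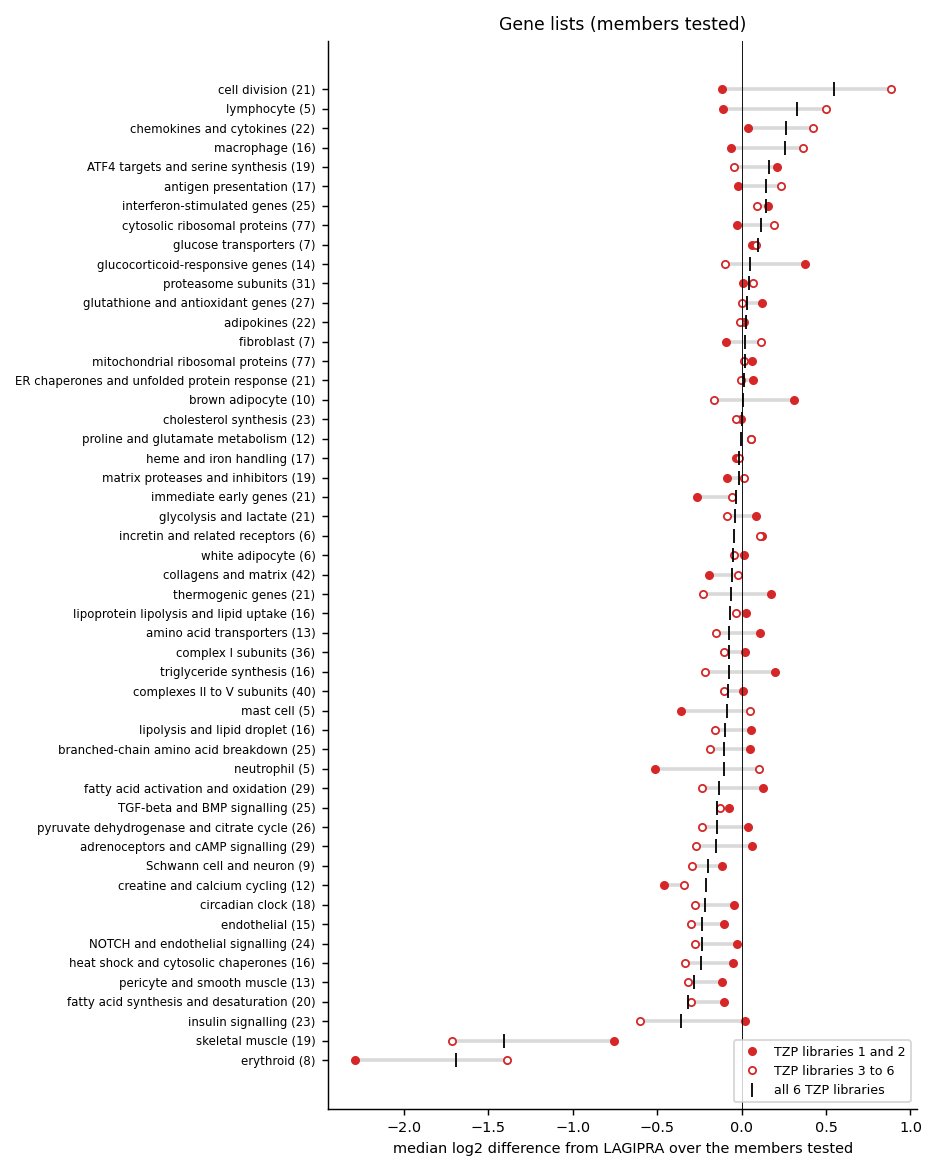
Median log2 difference from LAGIPRA (horizontal axis) for 51 gene lists, ordered by the median over all 6 TZP libraries (black tick), with TZP libraries 1 and 2 as filled and 3 to 6 as open circles and the number of members tested in brackets. Erythroid (-1.69) and skeletal muscle (-1.41) markers lie far to the left in both sets, cell division (0.55) lies to the right through the open circles only, and mitochondrial lists lie near 0.

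Of the 51 gene lists, 44 had no member past the threshold, among them every metabolic list. Thermogenic genes did not pass: 0 of 21, with a median of -0.07. Ucp1 (Entrez 22227) had 15.09, 15.36 and 15.91 in TZP and 15.09, 15.26 and 15.68 in LAGIPRA. The groups shared their lowest value, as quantile normalization gives genes of equal rank 1 value, and the difference was 0.09 (SE 0.12, 95% interval -0.16 to 0.33, adjusted p = 0.754). Against Vehicle, Ucp1 rose in both, by 0.50 in TZP and 0.41 in LAGIPRA (adjusted p = 0.00579 and 0.0274). PairFedVehicle, given vehicle alone, had 15.09 to 15.51, beside the levels of both treatments. The lipid droplet protein Cidea stood at 0.01, and the proton channel Otop1 at 0.00 (adjusted p = 0.967 and 0.999). The nuclear receptor Esrra had means of 8.98 in TZP and 8.99 in LAGIPRA (adjusted p = 0.987). Ppargc1a, the coactivator of mitochondrial genes, stood at -0.06 (adjusted p = 0.938), as 0.98 in TZP 1 and 2 and -0.59 in TZP 3 to 6. Prdm16 and Ebf2, transcription factors of brown adipocyte identity, had means of 4.16 and 5.69 in TZP and 5.16 and 6.39 in LAGIPRA (adjusted p = 0.0658 and 0.0737), while their differences in TZP 1 and 2 were 0.04 and -0.02. Dio2, which activates thyroid hormone, stood at -0.26 (adjusted p = 0.768).

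The mitochondrial lists lay close together. Of 36 complex I subunits, 0 passed and 0 had an unadjusted p under 0.05, with differences from -0.18 to 0.11 and a median of -0.07. The 40 subunits of complexes II to V gave the same counts of 0 and 0, from -0.18 to 0.07. The 77 mitochondrial ribosomal proteins had a median of 0.02 and 0 passed. Beside Vehicle, the median of complex I was 0.31 in TZP and 0.37 in LAGIPRA, and 27 and 30 of the 36 passed.

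Fuel pathways stood slightly lower in TZP with no call. Branched-chain amino acid breakdown had 0 of 25 (median -0.10), and Mcee, an enzyme of valine and isoleucine breakdown, stood at 0.11 (adjusted p = 0.554). Pyruvate dehydrogenase and the citrate cycle had 0 of 26 (median -0.15), with citrate synthase Cs at -0.30 (adjusted p = 0.151). Fatty acid oxidation had 0 of 29 (median -0.13), and glycolysis 0 of 21 (median -0.04). The medians of these 4 lists in TZP 1 and 2 were 0.05, 0.04, 0.13 and 0.08.

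Fatty acid synthesis had the lowest median of the metabolic lists, -0.32 over 20 genes, with 0 called and 6 lower at an unadjusted p under 0.05 (10.4% of all genes). Srebf1 (Entrez 20787), the transcription factor of lipid synthesis genes, had 7.84, 7.92 and 8.08 in TZP and 8.10, 8.29 and 8.55 in LAGIPRA. The groups did not overlap, yet the adjusted p was 0.0531 (-0.38, SE 0.088), with -0.42 in TZP 1 and 2. It rose in LAGIPRA against Vehicle (0.42, adjusted p = 0.00787), and TZP stood at 0.04 (adjusted p = 0.779). Scd2, a fatty acid desaturase, stood at -1.02 (adjusted p = 0.0516), with -0.12 in TZP 1 and 2 and -1.48 in TZP 3 to 6. Fasn, fatty acid synthase, and Acacb, an acetyl-CoA carboxylase, stood at -0.89 and -0.80 (adjusted p = 0.225 and 0.124), and at 0.08 and 0.24 in TZP 1 and 2. Of 23 cholesterol synthesis genes 0 passed (median 0.00).

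Among immediate early and stress genes, Jun, a subunit of the AP-1 factor, stood at -0.70 (adjusted p = 0.0630), with -0.60 in TZP 1 and 2 and -0.75 in TZP 3 to 6. Fos, its partner, stood at 0.46 (adjusted p = 0.581), Egr1 at -0.70 (adjusted p = 0.283) and Atf3 at 0.34 (adjusted p = 0.431), and 0 of 21 passed. The inducible heat shock protein genes Hspa1a and Hspa1b, near-identical copies whose reads may be split, stood at -1.08 and -1.09 (adjusted p = 0.0554 and 0.0582). Their values of -0.89 and -0.91 in TZP 1 and 2 came from TZP 1 alone (7.83 and 6.42). TZP 2 (9.58 and 8.21) lay within the LAGIPRA ranges. Of 16 chaperones, 15 were below 0, 8 of them at an unadjusted p under 0.05 (10.4% of all genes with TZP lower), and 0 passed. The chaperone median was -0.05 in TZP 1 and 2 and -0.33 in TZP 3 to 6. In the circadian clock, Per3 stood at -0.98 (adjusted p = 0.0570), with -0.36 in TZP 1 and 2.

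Of the immune lists, 0 had a called member, and their medians lay on both sides of 0. Of 22 chemokines and cytokines, 17 were above 0, with a median of 0.26 (0.04 in TZP 1 and 2, 0.42 in TZP 3 to 6). Ccl3, a macrophage chemokine, stood at 1.24 (adjusted p = 0.0583): it fell in LAGIPRA against Vehicle (-1.42, adjusted p = 0.00814), and TZP stood at -0.18 (adjusted p = 0.715). Ccl3 was higher by 1.10 in TZP 1 and 2 and 1.31 in TZP 3 to 6. Bst2, an interferon-induced membrane protein, had no overlap between the groups and a difference of 0.49 (adjusted p = 0.118). Macrophage markers, 16 tested, had a median of 0.26 with 0 passed, as -0.07 in TZP 1 and 2 and 0.37 in TZP 3 to 6, and their mean ran from 7.02 to 7.98 in TZP and from 6.83 to 7.73 in LAGIPRA. The 5 lymphocyte markers had a median of 0.33 (-0.11 in TZP 1 and 2), the 5 neutrophil markers -0.10 (-0.52) and the 5 mast cell markers -0.09 (-0.36). The 25 interferon-stimulated genes had a median of 0.14 (0.16). All 21 cell division genes were above 0 (median 0.55), 0 passed, and the median was -0.12 in TZP 1 and 2 and 0.88 in TZP 3 to 6.

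Secreted factors did not pass (0 of 22 adipokines). Lep, leptin, stood at -0.46 (adjusted p = 0.274), Adipoq, adiponectin, at -0.19 (adjusted p = 0.284) and Fgf21 at 0.16 (adjusted p = 0.887). Nrg4, a growth factor released by brown adipocytes, stood at -0.14 (adjusted p = 0.494), and Gdf15 at 0.57 (adjusted p = 0.526). Adcy9, an adenylyl cyclase, had the smallest p of 29 adrenoceptor and cyclic AMP genes (-0.94, adjusted p = 0.0658), with -0.05 in TZP 1 and 2. Brown adipocyte markers checked the tissue label: their mean was 8.85 to 9.98 in TZP and 9.23 to 9.69 in LAGIPRA, and Ucp1 was at 14.70 or more in every library.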

How the data were processed

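RNA was isolated from brown adipose tissue with TRIzol and a lipid kit and selected for polyA tails, per the labels' protocols. Cutadapt 1.9.1 and GSNAP are named, per the submitters' processing notes. Genome build, annotation, read counter and strand setting are not given in the sources, so overlapping antisense genes cannot be told apart. The deposited values, 1 per gene and library for 23017 genes, were taken as log2 values quantile normalized by the authors. This was inferred from the values, whose quantiles were nearly equal in all libraries (75% quantile 6.21), and which ran from -0.50 to 22.35. Read totals are unknown. The level of 1 read is the most frequent low value above 0.

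The 25% of genes with the lowest mean (below 2.86) were left out and 17263 tested with limma 3.58.1 in R 4.3.3: 1 mean per group over all 24 libraries, a mean-variance trend, two-sided, contrast TZP minus LAGIPRA, Benjamini-Hochberg adjustment over all tested genes. On simulated data with this contrast and 17263 genes, 75% of genes changed by 1 and 29% of those changed by 0.5 (log2) were recovered. The simulation drew independent noise with the same spread in every group. In the data some genes spread more in TZP (Kmt2d, SD 0.77 against 0.19 in LAGIPRA), so these shares may not hold. Transcript length is the longest protein-coding transcript of GENCODE M21 (90.1% of tested genes). Library measures were compared over the 924 assignments of 6 and 6 libraries. Means of marker lists were planned for the same test and are given without a p.

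The 51 gene lists (39 pathways, 12 cell types, 1085 entries of which 11 had no row and 45 were under the filter) and the comparison itself were chosen with earlier results of these data known. Named by rule were Gipr, Gcgr and Ucp1, the called genes of the largest differences without overlap and at least median expression, the 6 smallest p, up to 3 called members (or the member of smallest p) of each list, and any member of the immediate early, thermogenic, adipokine and receptor lists. Some genes that the rule names are not reported here. Named after their values were seen: Fam46c, Gm10169, Mif-ps6, Steap4, Slc35c2, Gm41633, Kmt2d, Snu13, Hcfc1, Gm34344, Arid1a, C030016D13Rik, Cdh5, Cd93, Hba-a1, Hbb-bs, Epb42, Srebf1, Fasn, Acacb, Hspa1b, Tbc1d4, Pik3r1, Slc2a4, Kdr, Flt1, Pecam1, Mt1, Mt2, Cdkn1a and Mcee. Alternatives were other filters, normalization, offset, variance models, covariates, length corrections and omission of each library.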

Additional observations from a re-analysis of the deposited data

Results flagged for a closer look

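In groups of 6, a library was singled out where its gap to the nearest other, divided by the range, was over Dixon's 95% critical value. This held for 11 of 188 groups of values tested, and chance alone gives about 1 in 20. LAGIPRA 1 was high in 3 red cell values: Alas2 (7.67, next 6.99), Hbb-bs (15.62, next 14.85) and the erythroid mean (10.60, next 9.84). The remaining LAGIPRA values were a low Bst2 in LAGIPRA 5 (6.65, next 7.15), a high C030016D13Rik in LAGIPRA 5 (6.07, next 5.91), a high length slope in LAGIPRA 2 (0.050, next 0.009) and a low skeletal muscle mean in LAGIPRA 4 (5.77, next 7.97). In TZP they were a high C030016D13Rik in TZP 5 (5.34, next 4.96), a low Gm10169 in TZP 4 (10.55, next 10.77), a low Gm41633 in TZP 1 (3.07, next 4.003) and a low skeletal muscle mean in TZP 3 (1.14, next 6.52).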

How the results depend on the processing

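The count of 69 called genes moved with most settings. It was 15 with no filter on low values, 49 with a filter at the median, 3 with only the 12 TZP and LAGIPRA libraries, 15 without the mean-variance trend, 1071 with array weights and 115 after cyclic loess normalization. It was 69 after subtracting library medians, 92 with an offset of 8, 62 after correction for transcript length and 52 for changes of at least 1.5-fold. It was 0 with the length slope as a covariate (1009 at an unadjusted p under 0.05), 268 with the level of 1 read and 37 with the skeletal muscle mean as covariates. The length slope is in part confounded with the contrast, as TZP 3 to 6 lie below all other libraries in it. The loss of calls with this covariate thus cannot show what the differences follow. The count was 2 with TZP 1 and 2 alone and 23 without the 3 libraries low in skeletal muscle. Chosen after seeing the data, the erythroid mean as a covariate gave 0 and TZP 3 to 6 alone 2251. Leaving out 1 library at a time gave 0 to 1088: 1043 without TZP 1, 1088 without TZP 2, 52 without TZP 3, 6 without TZP 4, 1 without TZP 5 and 0 without TZP 6, and 23, 6, 0, 0, 1 and 0 without LAGIPRA 1 to 6. Where the count was 0 in these omissions, 1949 to 2630 genes had an unadjusted p under 0.05. The cause of these moves was not tested.

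The replicate block, with the replicate number of the titles as a factor, gave 23 calls, 20 of them among the 69. The deviations of same-numbered TZP and LAGIPRA libraries correlated at -0.203 to 0.176 across genes, with 3 of 6 below 0 and not every library closest to its own number, so the numbers were not taken to pair the libraries.

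All 34 named genes that passed kept their sign under every alternative that gave them a value. Gm10277 passed under 20 of 29, Tbx5 and Tmem171 under 18 of 28, Hbb-bt under 14 of 28, Fkbp5 under 11 of 28, Irs1 under 10 of 29 and Gm41633 under 8 of 27. Of 55 named genes that did not pass, 29 passed under at least 1 alternative, and the sign of 17 turned under at least 1 without passing. The difference in length slope was -0.0972 to -0.0593 with 1 library left out (exact permutation p from 0.026 to 0.0909). That in the level of 1 read was -0.0753 to 0.0413, and that in the number of genes at the zero level, -30.7 with all libraries, was -58.5 to 6.67. With read totals unknown, no limit from depth can be given for weak genes such as Gipr.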

Other observations

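Some lists had values in the report's figure alone. Npy, the neuropeptide of sympathetic nerves, had the highest difference of all tested genes, 1.98 (SE 0.63), without passing (limma adjusted p = 0.107). It ran from 1.17 to 4.89 in TZP and from 0.01 to 2.81 in LAGIPRA. Ckb, the creatine kinase of the creatine cycle of brown fat, stood at 0.38 (adjusted p = 0.0946), with 0.31 in TZP 1 and 2 and 0.41 in TZP 3 to 6. Gsr, glutathione reductase, stood at 0.24 (adjusted p = 0.168), and fell in LAGIPRA against Vehicle (-0.37, adjusted p = 0.0129). Of 77 cytosolic ribosomal proteins, 72 were above 0 with a median of 0.12, but the median was -0.03 in TZP 1 and 2 and 0.19 in TZP 3 to 6, and 0 passed. Of 31 proteasome subunits, 26 were above 0 (median 0.04) and 0 passed. G0s2, an inhibitor of the triglyceride lipase of fat cells, stood at -0.49 (adjusted p = 0.113), with -0.03 in TZP 1 and 2, and rose in LAGIPRA against Vehicle (0.76, adjusted p = 0.00758). Its mean was higher still in PairFedVehicle (13.33, against 13.04 in LAGIPRA), and LAGIPRA stood at -0.30 against PairFedVehicle (adjusted p = 0.251). Alas1, the heme synthesis enzyme of cells other than red cell precursors, stood at -0.30 (adjusted p = 0.0895), with -0.28 in TZP 1 and 2 and -0.32 in TZP 3 to 6, while its red cell counterpart Alas2 stood at -1.89.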
